A study of Mus musculus with 12 samples.

Results

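The 41 genes described here act in S phase, the stretch of the cell cycle in which the chromosomes are copied. They were chosen by symbol, and all 41 were found among the 41325 genes of each deposited count table. They comprise 10 genes of origin licensing, 20 of DNA synthesis (polymerases and primase, clamp and clamp loader, flap cleavage and ligation, single-strand binding, nucleotide supply) and 11 others (helicase activation, copying of chromatin and DNA methylation, S phase regulators). RNA was measured by sequencing in IMG, an immortalised line of mouse microglia, the macrophages that live in the brain. Every sample was wild type, of the C57Bl6/J strain and at 1 shared passage, and each was treated for 8 h. There were 4 libraries of cells treated with fAb, 4 of cells treated with oAb and 4 of cells given scramble, the control that all share for comparison. Both fAb and oAb are forms of amyloid beta, a peptide that builds up in brains with Alzheimer's disease. The study's design text links the word oligomeric to fAb and the word fibrillar to oAb, against the usual reading of the letters, so the groups are named here only as fAb, oAb and scramble. An immortalised line divides in culture, and nothing in the labels gives a cell count or a cell cycle measurement.

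Before S phase, the origin recognition complex, CDC6 and CDT1 load the MCM2-7 helicase onto origins, a step called licensing. In S phase the helicase is switched on by CDC45 and the GINS complex, primase starts each new strand, and the polymerases extend it while held on DNA by the PCNA clamp, which the RFC complex loads. Many of these genes are known targets of E2F transcription factors, whose activity rises at S phase entry. Adult microglia divide rarely at rest and can return to the cell cycle when the brain is injured or inflamed.

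The libraries held 13638721 to 18124419 counts. Values are normalised CPM, counts divided by library size after scaling for composition by TMM over all 12 libraries. A change is a log2 fold change against scramble with its standard error (SE), from 4 libraries per group, and it was called when edgeR's quasi-likelihood test gave an adjusted p under 0.05 over all genes tested. No label ties the replicates to separate cultures, so these p-values measure the spread between libraries, which may be technical. The libraries also fall into sets that the groups do not explain. In oAb libraries 1 and 2 and scramble libraries 2, 3 and 4, 94.6% to 98.3% of the counts of the gene Timm23 and its near copy Gm10273 were assigned to Timm23, while in fAb libraries 1 to 4, oAb libraries 3 and 4 and scramble library 1 this share was 17.5% to 38.5%. These are called the Timm23 set and the Gm10273 set. All fAb libraries lie in the Gm10273 set, and only 1 scramble library does. With the library set as a term in the fit, the fAb value therefore compares fAb with scramble library 1 alone. The fit within the Gm10273 set makes that same contrast. No label gives a batch, and what separates the sets was not tested. Scramble library 3 also stood apart, with 6 of the 10 single-library deviations among these genes.

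Most of the synthesis genes were lower after either peptide preparation, while a few genes of licensing and helicase activation were higher. In fAb against scramble 24 of the 41 genes fell, 4 rose and 13 were not past the threshold, where 56.3% of the 11074 genes tested were called, 28.8% lower and 27.6% higher. In oAb against scramble 21 fell, 3 rose and 17 were not past it, where 52.2% of 11033 genes were called, 27% lower and 25.2% higher. The median log2 fold change of the 41 genes was -0.43 in fAb and -0.43 in oAb, beside -0.04 and -0.07 over all genes tested. Under upper quartile scaling the medians over all genes were -0.23 and -0.24, and all genes split into 2273 higher and 4361 lower in fAb and 2127 and 4015 in oAb, beside 3051 and 3184 and 2777 and 2984 with TMM. Of the 41 genes, 31 fell and 3 rose in fAb under that scaling, and 29 fell and 3 rose in oAb. Against scramble the genes whose sign it turned were Pola2, Rfc3 and Uhrf1 in both comparisons and Orc6 and Rrm2 in oAb, and none of these was called with TMM. All 41 genes passed the filter on low counts in each comparison. By step, the counts were as follows. Of the 20 synthesis genes, 16 fell and 1 rose in fAb (median -0.63), and 16 fell and 0 rose in oAb (median -0.75). Of the 10 licensing genes, 5 fell and 2 rose in fAb (median -0.15), and 2 fell and 2 rose in oAb (median -0.18). Among the 11 others 3 fell and 1 rose in each comparison. Without any overlap between libraries, 22 genes were lower and 4 higher in fAb (28% and 27.4% of genes tested), and 24 were lower and 3 higher in oAb (25% and 26.2%). The difference between steps was not tested. Together the 41 genes took 0.303% to 0.331% of all counts, before TMM scaling, in fAb libraries, 0.290% to 0.330% in oAb libraries and 0.473% to 0.525% in scramble libraries. The TMM factors were 0.934 to 0.988 in fAb, 0.914 to 0.957 in oAb and 1.01 to 1.17 in scramble. After that scaling the gap was smaller, with summed normalised CPM of 3233 to 3379, 3166 to 3451 and 4373 to 4674. In bulk RNA, fewer cells in S phase and less RNA of these genes per cell cannot be told apart. Both comparisons use the same scramble libraries, so the likeness of their values is not independent evidence.

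**Figure D1:**
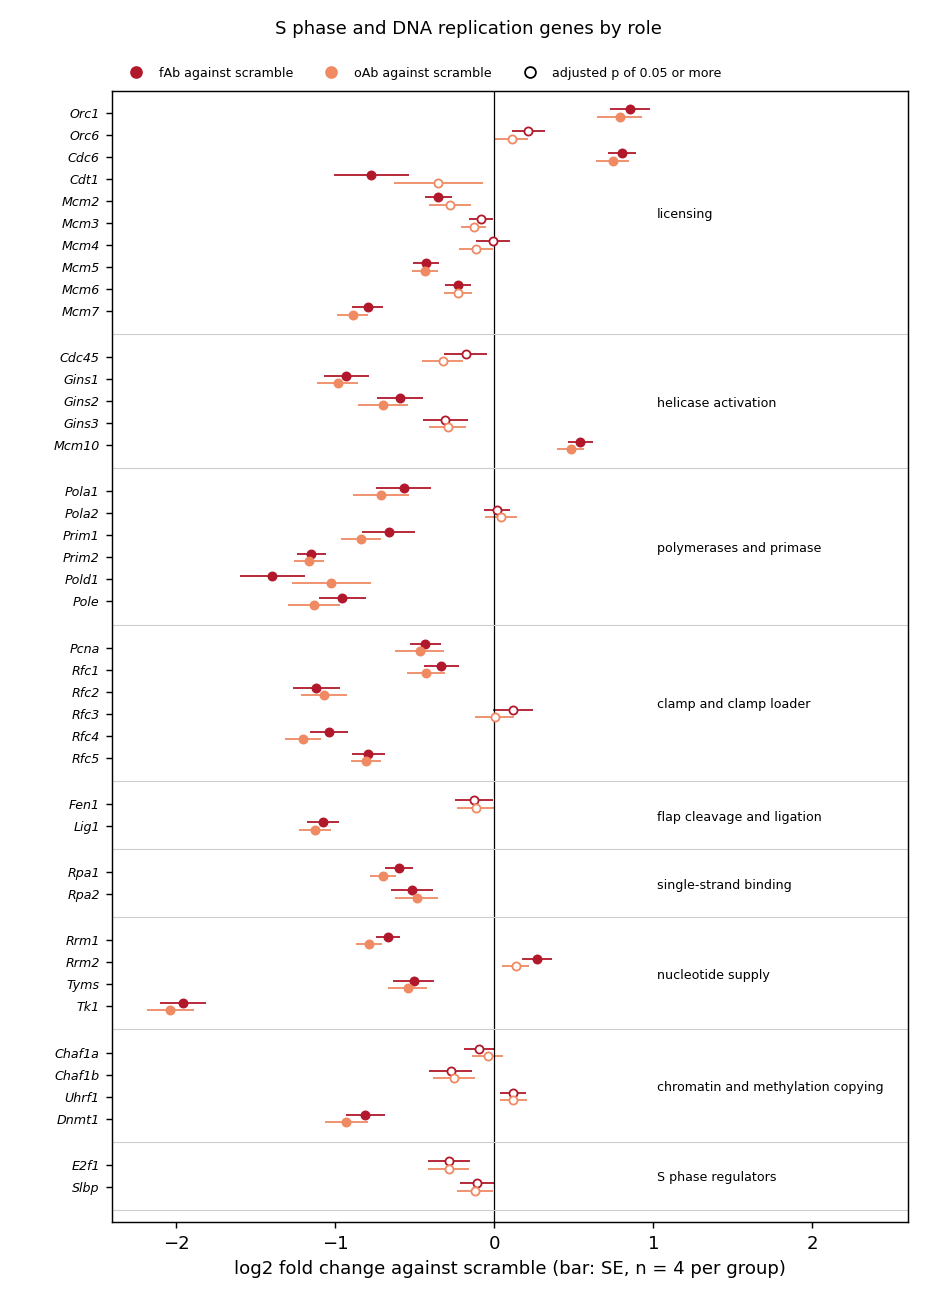
Each of the 41 genes is a row, grouped by role, with its log2 fold change against scramble on the x axis for fAb and oAb (bars are SE, n = 4 libraries per group, and open points have an adjusted p of 0.05 or more). Tk1 lies farthest left, at -1.95 in fAb and -2.04 in oAb, and Orc1, Cdc6 and Mcm10 lie right of 0 in both.

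Promoter sequences were available for 35 of the 41 genes in RefSeq (build GRCm38.p6), all but Mcm4, Rfc2, Gins2, Pole, Prim2 and Gins1, each from 250 bases before to 50 bases after the gene's start. They were searched on both strands for the E2F words TTTCCCGC, TTTCGCGC, TTTGCCGC and TTTGGCGC. At least 1 word was found in 14 of the 35 (40%), against 2.6% of all 27025 genes with a promoter (744 of 32851 promoters, 2.27%, since a gene can have several). Of genes with a promoter, 2 of 4 that rose and 8 of 19 that fell in fAb held a word, as did 4 of 12 that were not past the threshold. In oAb these were 2 of 3, 6 of 16 and 6 of 16. A word in a window is a description and says nothing of binding. The 5 promoters printed here are on their gene's strand with the words in capitals, and were chosen after the values were seen: Cdc6 and Orc1, which rose in both comparisons, Mcm5 and Pola1, which fell in both, and Rfc3, which was called in neither. All 5 hold a word, while 14 of the 35 do, so they do not stand for the rest. Mcm10, which also rose in both comparisons, and Tk1, which fell in both, hold none. Cdc6 lies at chr11:98907901-98908200 on the plus strand and Orc1 at chr4:108579204-108579503 on the plus strand. Mcm5 lies at chr8:75109259-75109558 on the plus strand, Pola1 at chrX:93632106-93632405 on the minus strand and Rfc3 at chr5:151651159-151651458 on the minus strand. Counted from the start, with no position 0, the words begin at -138 in Cdc6, -27 in Orc1, -153 and -149 in Mcm5 (overlapping), -138 in Pola1, and -10 and 1 in Rfc3.
Cdc6: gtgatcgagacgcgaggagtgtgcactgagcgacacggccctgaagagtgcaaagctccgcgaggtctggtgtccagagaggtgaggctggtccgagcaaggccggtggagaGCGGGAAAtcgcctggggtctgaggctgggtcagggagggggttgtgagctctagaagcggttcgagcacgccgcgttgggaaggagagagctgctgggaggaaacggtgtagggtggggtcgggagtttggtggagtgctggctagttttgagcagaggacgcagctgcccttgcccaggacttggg
Orc1: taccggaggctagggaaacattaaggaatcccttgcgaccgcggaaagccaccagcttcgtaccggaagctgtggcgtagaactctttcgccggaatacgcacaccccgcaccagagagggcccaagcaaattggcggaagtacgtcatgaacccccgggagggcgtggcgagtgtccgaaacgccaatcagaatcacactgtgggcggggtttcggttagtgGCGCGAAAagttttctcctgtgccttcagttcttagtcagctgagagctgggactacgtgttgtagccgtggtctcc
Mcm5: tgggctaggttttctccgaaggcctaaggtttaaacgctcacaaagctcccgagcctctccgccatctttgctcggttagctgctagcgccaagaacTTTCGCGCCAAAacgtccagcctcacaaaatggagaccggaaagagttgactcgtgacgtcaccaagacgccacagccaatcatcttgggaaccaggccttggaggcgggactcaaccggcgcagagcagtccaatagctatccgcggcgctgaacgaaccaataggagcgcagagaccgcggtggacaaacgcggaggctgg
Pola1: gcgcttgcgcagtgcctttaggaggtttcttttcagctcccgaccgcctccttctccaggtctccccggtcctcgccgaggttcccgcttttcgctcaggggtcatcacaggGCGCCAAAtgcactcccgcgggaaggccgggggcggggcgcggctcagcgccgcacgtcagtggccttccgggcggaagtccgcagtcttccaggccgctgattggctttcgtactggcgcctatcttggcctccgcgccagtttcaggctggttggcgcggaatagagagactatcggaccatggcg
Rfc3: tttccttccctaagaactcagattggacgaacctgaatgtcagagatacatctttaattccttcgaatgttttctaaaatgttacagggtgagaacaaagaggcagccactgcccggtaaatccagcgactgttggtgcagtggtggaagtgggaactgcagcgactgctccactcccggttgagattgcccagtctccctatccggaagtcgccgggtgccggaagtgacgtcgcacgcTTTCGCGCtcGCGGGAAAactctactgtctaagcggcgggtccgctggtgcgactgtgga

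The same windows were searched for 2 further motifs of cell cycle promoters. The CCAAT box, which NF-Y binds, was in 23 of the 35 (65.7%), against 41.1% of all genes and 37.4% of all promoters, and the CHR element TTTGAA, known from genes of G2 and mitosis, was in 5 of the 35 (14.3%), against 20.2% and 17.9%. Both strands were searched. Of the printed promoters, those of Orc1, Mcm5, Pola1 and Rfc3 hold CCAAT, and none of the 5 holds the CHR letters.

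Of the licensing genes Orc1 and Cdc6 rose in both comparisons, while the helicase subunits fell or were not called. Orc1 (ENSMUSG00000028587) encodes the largest subunit of the origin recognition complex. It was at 25.2, 24.6, 24.5 and 22.7 normalised CPM in the fAb libraries, 26.5, 25.0, 22.5 and 21.0 in the oAb libraries and 15.2, 16.0, 11.0 and 12.9 in the scramble libraries. Every fAb and oAb library was above every scramble library, and the log2 fold change was 0.85 ± 0.13 in fAb (edgeR adjusted p = 0.000344) and 0.79 ± 0.14 in oAb (adjusted p = 0.00122). Its exons overlap Gm12743 on the other strand over 10.8% of their length. Cdc6 (ENSMUSG00000017499) encodes the loader that ORC recruits to the origin. Counts of Cdc6 gave 67.1, 67.2, 63.3 and 65.6 normalised CPM in the fAb libraries, 62.7, 59.0, 67.7 and 70.0 in the oAb libraries and 43.1, 35.8, 36.2 and 40.1 in the scramble libraries. The treated libraries again stood clear of scramble, with a log2 fold change of 0.80 ± 0.09 in fAb (edgeR adjusted p = 5.21e-05) and 0.74 ± 0.10 in oAb (adjusted p = 0.000217). Orc6, another ORC subunit, had a log2 fold change of 0.21 ± 0.11 in fAb and 0.11 ± 0.11 in oAb and passed in neither (edgeR adjusted p = 0.11 and 0.409).

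Cdt1 encodes the partner of CDC6 in helicase loading and is degraded once S phase begins. It was at 69.6, 56.0, 67.5 and 73.0 normalised CPM in the fAb libraries, 109, 118, 63.1 and 73.7 in the oAb libraries and 68.0, 110.1, 164 and 124 in the scramble libraries. The groups overlapped: scramble library 1, of the Gm10273 set, was at 68.0, inside the range of fAb, and the other 3 scramble libraries were higher. The log2 fold change was -0.77 ± 0.24 in fAb (edgeR adjusted p = 0.0196) and -0.35 ± 0.28 in oAb (adjusted p = 0.319), which did not pass. With the library set as a term in the fit the value in fAb was 0.02, and within the Gm10273 set it was 0.03. Both rest on scramble library 1 alone, so they are the same contrast and not separate checks. Without fAb library 2 the adjusted p in fAb was 0.053, and without scramble library 3 the values were -0.56 in fAb and -0.14 in oAb (adjusted p = 0.0336 and 0.711). The fall of Cdt1 therefore cannot be told apart from the library sets.

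The 6 subunits of the MCM2-7 helicase did not all move. Mcm7 fell in both comparisons. Its level was 106, 109, 102 and 107 normalised CPM in the fAb libraries, 105, 104, 95.9 and 101 in the oAb libraries and 184, 171, 219.9 and 179.7 in the scramble libraries. No treated library reached the scramble range, and the log2 fold change was -0.80 ± 0.10 in fAb (edgeR adjusted p = 0.000108) and -0.89 ± 0.10 in oAb (adjusted p = 5.42e-05). Of its 50-base words, 23.3% also occur in other genes. Mcm2 stood at 132, 122, 121 and 126 normalised CPM in the fAb libraries, 159, 151, 111 and 119 in the oAb libraries and 148, 170.1, 159 and 178 in the scramble libraries. All fAb libraries and oAb libraries 3 and 4 were below scramble, while oAb libraries 1 and 2 were within its range. It fell by 0.35 on the log2 scale in fAb (edgeR adjusted p = 0.00692), and the log2 fold change in oAb was -0.28 ± 0.13 (adjusted p = 0.11). With the library set as a term, which sets fAb against scramble library 1 alone, the fAb value for Mcm2 was -0.19. Mcm5 averaged 158 ± 7.30 normalised CPM in fAb, 161 ± 4.86 in oAb and 218 ± 13.2 in scramble (SD, n = 4 each). It fell in both, with a log2 fold change of -0.43 ± 0.08 in fAb and -0.44 ± 0.08 in oAb (edgeR adjusted p = 0.00165 and 0.00142). Mcm6 was close to the threshold, with a log2 fold change of -0.23 ± 0.08 in fAb (edgeR adjusted p = 0.0424) and -0.23 ± 0.09 in oAb (adjusted p = 0.0508), and the fAb call was lost when any 1 of the 4 fAb libraries was left out (adjusted p from 0.0665 to 0.117) and without scramble library 4 (adjusted p = 0.0618). For Mcm6 the fAb value was -0.17 with the library set as a term and -0.16 within the Gm10273 set, both against scramble library 1 alone. In oAb it passed without scramble library 3 (adjusted p = 0.0251). Mcm3 and Mcm4 were not called, with a log2 fold change of -0.08 ± 0.08 and -0.01 ± 0.11 in fAb and -0.13 ± 0.08 and -0.11 ± 0.11 in oAb, though Mcm4 in oAb passed without scramble library 3 at -0.20 (edgeR adjusted p = 0.0204).

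**Figure D2:**
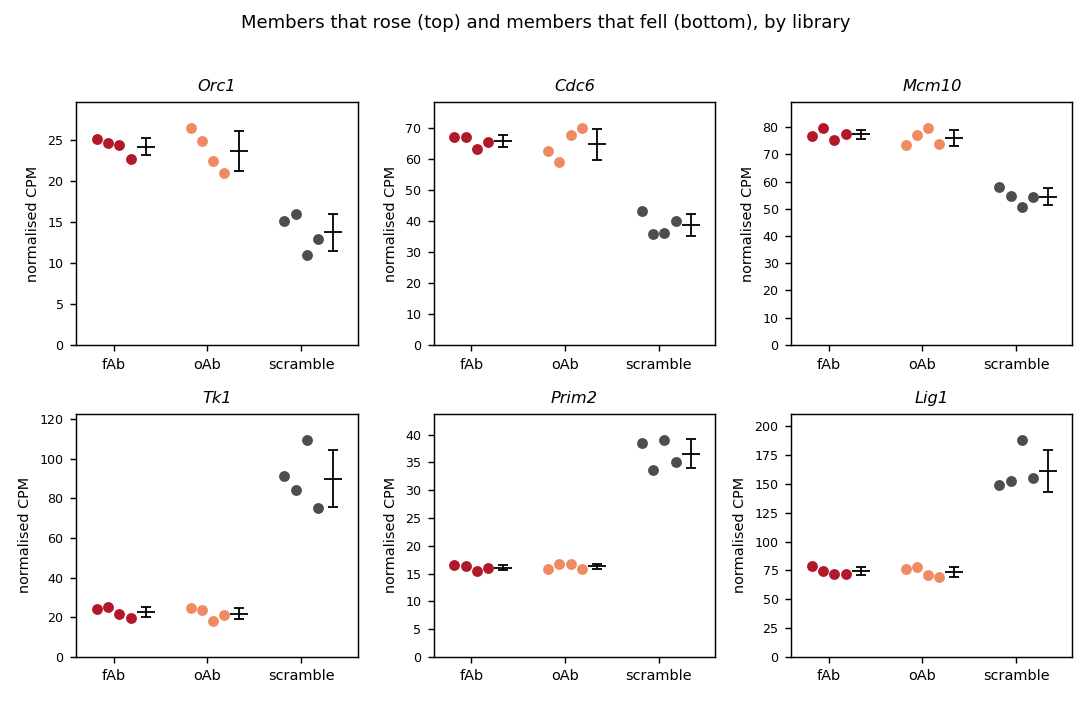
Normalised CPM of each library (y axis, from 0) is plotted for Orc1, Cdc6 and Mcm10 in the top row and Tk1, Prim2 and Lig1 in the bottom row, with fAb, oAb and scramble on the x axis and the mean with its SD in black (n = 4 libraries each). In all 6 panels the scramble libraries lie apart from the fAb and oAb libraries, below them in the top row and above them in the bottom row.

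At helicase activation, 1 gene rose and 2 fell in each comparison. Mcm10 encodes a factor that binds the helicase at origins as it is switched on. It was at 76.7, 79.5, 75.3 and 77.6 normalised CPM in the fAb libraries, 73.4, 77.0, 79.6 and 73.6 in the oAb libraries and 58.1, 54.6, 50.7 and 54.5 in the scramble libraries. All treated libraries exceeded all scramble libraries, with a log2 fold change of 0.54 ± 0.08 in fAb (edgeR adjusted p = 0.000274) and 0.48 ± 0.08 in oAb (adjusted p = 0.00103). Gins1 encodes a subunit of GINS, which travels with the helicase. Its level was 11.5, 8.99, 8.53 and 9.00 normalised CPM in the fAb libraries, 10.1, 9.97, 9.25 and 8.20 in the oAb libraries and 16.8, 18.08, 22.1 and 17.6 in the scramble libraries. The treated and scramble ranges did not meet, and the log2 fold change was -0.93 ± 0.14 in fAb (edgeR adjusted p = 0.00044) and -0.98 ± 0.13 in oAb (adjusted p = 0.000155). Gins2, of the same complex, fell, with a log2 fold change of -0.59 ± 0.14 in fAb and -0.70 ± 0.16 in oAb (edgeR adjusted p = 0.00651 and 0.00478), but 67.3% of its exon bases overlap Gse1 on the other strand, and the sources used here do not give whether reads were counted by strand. With the library set as a term its fAb value, against scramble library 1 alone, was -0.49. Gins3 had a log2 fold change of -0.31 ± 0.14 in fAb and -0.29 ± 0.12 in oAb, and Cdc45, the helicase cofactor, with a log2 fold change of -0.18 ± 0.14 and -0.32 ± 0.13, none past the threshold. In oAb both passed without scramble library 3 (edgeR adjusted p = 0.0395 for Gins3 and 0.0397 for Cdc45) or without scramble library 4 (0.031 and 0.0277), and Cdc45 also without oAb library 1 (0.0494).

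Of the 6 genes of the polymerases and primase, 5 fell in each comparison. Prim2 encodes the large subunit of primase, which makes the RNA primer. It was at 16.5, 16.4, 15.4 and 15.9 normalised CPM in the fAb libraries, 15.8, 16.7, 16.8 and 15.8 in the oAb libraries and 38.4, 33.6, 39.05 and 35.1 in the scramble libraries. The treated libraries were tightly grouped and far below scramble, with a log2 fold change of -1.15 ± 0.09 in fAb (edgeR adjusted p = 5.76e-06) and -1.16 ± 0.09 in oAb (adjusted p = 6.07e-06). Prim1, the catalytic primase subunit, fell, with a log2 fold change of -0.66 ± 0.17 in fAb and -0.84 ± 0.13 in oAb (edgeR adjusted p = 0.00788 and 0.000384). Pola1, the catalytic subunit of polymerase alpha, fell, with a log2 fold change of -0.57 ± 0.17 in fAb and -0.71 ± 0.18 in oAb (edgeR adjusted p = 0.0197 and 0.00748). Its scramble libraries spread from 49.3 normalised CPM in library 3 to 92.7 in library 1, with 80.2 and 84.6 in libraries 2 and 4. The fAb call was lost without fAb library 3, fAb library 4 or scramble library 4 (adjusted p from 0.0543 to 0.0562). Without scramble library 3 the values of Pola1 were -0.73 in fAb and -0.87 in oAb (edgeR adjusted p = 8.34e-06 and 1.19e-06). Pola2, which holds polymerase alpha to its partners, had a log2 fold change of 0.02 ± 0.08 in fAb and 0.04 ± 0.10 in oAb and was called in neither.

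Pole encodes the catalytic subunit of polymerase epsilon, which copies the leading strand. Its level was 42.3, 43.7, 43.2 and 45.6 normalised CPM in the fAb libraries, 37.3, 36.4, 42.5 and 42.1 in the oAb libraries and 99.8, 84.8, 61.4 and 102 in the scramble libraries. The lowest scramble library lay above all treated ones, and the log2 fold change was -0.95 ± 0.15 in fAb (edgeR adjusted p = 0.000555) and -1.13 ± 0.16 in oAb (adjusted p = 0.000288). Pold1 encodes the catalytic subunit of polymerase delta, which extends the lagging strand. It was at 27.1, 20.5, 26.9 and 29.3 normalised CPM in the fAb libraries, 43.8, 40.5, 23.2 and 29.6 in the oAb libraries and 45.3, 71.3, 89.7 and 73.1 in the scramble libraries. Neither fAb nor oAb overlapped scramble, but fAb and oAb overlapped each other, oAb libraries 1 and 2 were above oAb libraries 3 and 4, and scramble library 1 was the lowest of its group. The log2 fold change was -1.39 ± 0.21 in fAb (edgeR adjusted p = 0.000378) and -1.02 ± 0.25 in oAb (adjusted p = 0.00658). With the library set as a term these became -0.75 in fAb, against scramble library 1 alone, and -0.85 in oAb (edgeR adjusted p = 0.000571). The oAb call held, and the fAb value was smaller.

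Of the clamp and its loader, 5 of 6 genes fell in each comparison. Pcna encodes the sliding clamp. It was at 147, 127, 123 and 121 normalised CPM in the fAb libraries, 153, 154, 98.9 and 112 in the oAb libraries and 167, 181, 196 and 174 in the scramble libraries. Treated libraries lay below scramble, but oAb libraries 1 and 2 were close to it and oAb libraries 3 and 4 were well below. The log2 fold change was -0.43 ± 0.10 in fAb (edgeR adjusted p = 0.0041) and -0.47 ± 0.15 in oAb (adjusted p = 0.0279). With the library set as a term it was -0.31 in fAb, against scramble library 1 alone, and -0.40 in oAb (edgeR adjusted p = 0.0132). The oAb call was lost without oAb library 3 or 4 or scramble library 2 or 4, with an adjusted p of 0.0523 to 0.0854. Pcna shares 19.1% of its 50-base words with the pseudogene Pcna-ps2, and with both summed the log2 fold change was -0.40 in fAb (edgeR adjusted p = 0.0126) and -0.45 in oAb (adjusted p = 0.00964).

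Rfc4 encodes a small subunit of the loader. It was at 16.0, 16.9, 15.0 and 14.5 normalised CPM in the fAb libraries, 14.1, 14.7, 13.7 and 14.4 in the oAb libraries and 34.6, 30.4, 38.03 and 28.4 in the scramble libraries. No treated library came near scramble, with a log2 fold change of -1.04 ± 0.12 in fAb (edgeR adjusted p = 7.05e-05) and -1.20 ± 0.11 in oAb (adjusted p = 1.9e-05). Rfc5, another small subunit, stood at 51.6, 60.7, 58.7 and 54.4 normalised CPM in the fAb libraries, 55.1, 56.7, 59.3 and 57.3 in the oAb libraries and 99.2, 93.7, 115 and 92.3 in the scramble libraries. The separation was again complete, with a log2 fold change of -0.79 ± 0.10 in fAb (edgeR adjusted p = 0.000164) and -0.80 ± 0.10 in oAb (adjusted p = 8.49e-05). Rfc2, a further small subunit, fell, with a log2 fold change of -1.12 ± 0.15 in fAb and -1.07 ± 0.14 in oAb (edgeR adjusted p = 0.000189 and 0.000208), with 15.1% of its exon bases overlapping Lat2 on the other strand, as do 12.6% of Rfc4 (Eif4a2) and 10.7% of Rfc5 (Wsb2). Rfc1, the large subunit, fell, with a log2 fold change of -0.33 ± 0.11 in fAb and -0.43 ± 0.12 in oAb (edgeR adjusted p = 0.0311 and 0.0144). Its fAb call was lost without fAb library 1, 3 or 4 or scramble library 1, 2 or 4, with an adjusted p of 0.0623 to 0.0826. For Rfc1 scramble library 3 was at 131 normalised CPM, beside 193, 169 and 171 in scramble libraries 1, 2 and 4. Without scramble library 3 the values of Rfc1 were -0.43 in fAb and -0.52 in oAb (edgeR adjusted p = 0.000128 and 7.46e-05). Rfc3 was the loader gene called in neither comparison, with a log2 fold change of 0.12 ± 0.13 in fAb and 0.00 ± 0.12 in oAb (edgeR adjusted p = 0.456 and 0.988). Without scramble library 3 its fAb value was 0.23 and passed (adjusted p = 0.0368).

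Lig1 encodes the ligase that joins Okazaki fragments. It was at 78.7, 74.5, 72.1 and 72.0 normalised CPM in the fAb libraries, 76.6, 78.1, 70.7 and 69.2 in the oAb libraries and 149, 152, 188 and 155 in the scramble libraries. The treated libraries were at about the same low level and all scramble libraries were higher, with a log2 fold change of -1.08 ± 0.10 in fAb (edgeR adjusted p = 1.76e-05) and -1.13 ± 0.10 in oAb (adjusted p = 1.39e-05). Fen1 encodes the flap endonuclease that trims those fragments before ligation. Its level was 111, 105, 119.5 and 111 normalised CPM in the fAb libraries, 120.1, 119.7, 109 and 113 in the oAb libraries and 111, 114, 155 and 121 in the scramble libraries. The 3 groups overlapped, and neither change was called (log2 fold change -0.13 ± 0.12 in fAb and -0.11 ± 0.12 in oAb, edgeR adjusted p = 0.379 and 0.437). Without scramble library 3 the values of Fen1 were -0.0047 in fAb and 0.0035 in oAb. Gm10143, an antisense gene, covers 78.8% of the exon bases of Fen1. Both subunits of the single-strand binding protein RPA that are members fell. Rpa1, which contacts the DNA, was at 131, 139.7, 128 and 136 normalised CPM in the fAb libraries, 128, 131, 126 and 126 in the oAb libraries and 199, 198, 233 and 199.9 in the scramble libraries. All treated libraries were below all scramble libraries, with a log2 fold change of -0.60 ± 0.09 in fAb (edgeR adjusted p = 0.000318) and -0.70 ± 0.08 in oAb (adjusted p = 9.57e-05). Rpa2, the middle subunit, was at 42.4, 45.4, 42.05 and 44.8 normalised CPM in the fAb libraries, 47.0, 48.3, 44.6 and 42.7 in the oAb libraries and 58.2, 57.3, 82.6 and 58.4 in the scramble libraries. Scramble library 3 was far above the other scramble libraries, and the log2 fold change was -0.52 ± 0.13 in fAb (edgeR adjusted p = 0.00904) and -0.49 ± 0.13 in oAb (adjusted p = 0.0127). With the library set as a term the fAb value of Rpa2, against scramble library 1 alone, was -0.36.

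Nucleotide supply held the largest fall among the 41 genes. Tk1 (ENSMUSG00000025574, chromosome 11, minus strand, 117815526 to 117826092 in GENCODE M21) encodes the cytosolic thymidine kinase, which salvages thymidine in S phase. It was at 24.4, 25.2, 21.5 and 19.4 normalised CPM in the fAb libraries, 24.7, 23.6, 18.11 and 21.2 in the oAb libraries and 91.3, 84.2, 109.5 and 75.3 in the scramble libraries. It averaged 22.6 ± 2.68 normalised CPM in fAb, 21.9 ± 2.90 in oAb and 90.1 ± 14.5 in scramble (SD, n = 4 each), with no overlap. The log2 fold change was -1.95 ± 0.14 in fAb (edgeR adjusted p = 4.49e-06) and -2.04 ± 0.15 in oAb (adjusted p = 3.52e-06). Tyms, which makes thymidylate by the other route, fell, with a log2 fold change of -0.51 ± 0.13 in fAb and -0.54 ± 0.12 in oAb (edgeR adjusted p = 0.00869 and 0.00472). With the library set as a term the fAb value of Tyms, against scramble library 1 alone, was -0.42.

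The subunits of ribonucleotide reductase, the enzyme that makes deoxyribonucleotides, gave different results. Rrm1, the large subunit, was at 207, 215, 206 and 207 normalised CPM in the fAb libraries, 202, 191, 201 and 195 in the oAb libraries and 367, 331, 321 and 343 in the scramble libraries. The treated libraries were all lower, with a log2 fold change of -0.67 ± 0.08 in fAb (edgeR adjusted p = 6.3e-05) and -0.79 ± 0.08 in oAb (adjusted p = 3.47e-05). Rrm2, the small subunit, was at 113, 111, 95.7 and 96.5 normalised CPM in the fAb libraries, 106, 96.3, 93.9 and 92.6 in the oAb libraries and 95.5, 90.3, 83.4 and 85.7 in the scramble libraries. The fAb libraries were slightly above scramble, while oAb overlapped it. The log2 fold change was 0.27 ± 0.09 in fAb (edgeR adjusted p = 0.0342) and 0.13 ± 0.09 in oAb (adjusted p = 0.226). The fAb call was lost without fAb library 1 or 2 or scramble library 2 or 4 (adjusted p from 0.077 to 0.122) and, under upper quartile scaling, where the median of all genes moved to -0.23, the fAb value was 0.08 (adjusted p = 0.497). Against scramble library 1 alone the fAb value was also smaller than 0.27, at 0.18 with the library set as a term and 0.19 within the Gm10273 set.

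Copying of chromatin and of DNA methylation involves 4 of the genes, and 1 of them fell. Dnmt1 encodes the methyltransferase that copies methylation to the new strand. It was at 212, 206, 179 and 188 normalised CPM in the fAb libraries, 202, 204, 162 and 172 in the oAb libraries and 389.9, 369, 276 and 379.5 in the scramble libraries. The treated libraries were all below scramble, with a log2 fold change of -0.81 ± 0.12 in fAb (edgeR adjusted p = 0.000427) and -0.93 ± 0.13 in oAb (adjusted p = 0.000325). Uhrf1 encodes the protein that brings DNMT1 to newly copied DNA. Its level was 197, 178, 191 and 196 normalised CPM in the fAb libraries, 203, 203, 183 and 192 in the oAb libraries and 174, 189, 165 and 191 in the scramble libraries. The groups overlapped, and the log2 fold changes were 0.12 ± 0.08 in fAb and 0.12 ± 0.09 in oAb (edgeR adjusted p = 0.23 and 0.262). Uhrf1 shares 15.4% of its words with other genes. Chaf1b, a subunit of the chromatin assembly factor CAF-1, was at 36.1, 38.7, 39.5 and 40.4 normalised CPM in the fAb libraries, 41.2, 40.8, 38.2 and 40.3 in the oAb libraries and 45.3, 39.97, 61.2 and 45.3 in the scramble libraries. Scramble library 3 was the highest of all, library 2 of scramble lay among the treated libraries, and the log2 fold changes were -0.27 ± 0.13 in fAb and -0.25 ± 0.13 in oAb (edgeR adjusted p = 0.113 and 0.137). Without scramble library 2 Chaf1b passed in fAb at -0.37 (adjusted p = 0.0483), and without scramble library 3 it was -0.13 in fAb and -0.12 in oAb (adjusted p = 0.131 and 0.188). Chaf1a, the other CAF-1 gene, had a log2 fold change of -0.09 ± 0.09 in fAb and -0.04 ± 0.10 in oAb and was called in neither, with 52.5% of its exon bases overlapping Ubxn6 on the other strand.

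Of the S phase regulators, neither was called. E2f1 encodes the transcription factor that acts at S phase entry. It was at 31.3, 29.2, 33.5 and 28.1 normalised CPM in the fAb libraries, 32.1, 32.5, 28.8 and 31.3 in the oAb libraries and 33.9, 35.9, 48.0 and 34.7 in the scramble libraries. All treated libraries lay just below the scramble libraries, and scramble library 3 was far above its group. The log2 fold change was -0.28 ± 0.13 in fAb and -0.29 ± 0.13 in oAb, and neither passed (edgeR adjusted p = 0.095 and 0.0864). Without scramble library 3 they were -0.15 in fAb and -0.16 in oAb. Slbp encodes the protein that binds the stem-loop of replication-dependent histone mRNA. Its level was 58.9, 57.7, 46.9 and 49.1 normalised CPM in the fAb libraries, 60.2, 58.8, 50.1 and 47.1 in the oAb libraries and 62.0, 64.1, 52.6 and 56.5 in the scramble libraries. The groups overlapped, with libraries 3 and 4 lowest in all of them, and the log2 fold changes were -0.11 ± 0.11 and -0.12 ± 0.11 in fAb and oAb (edgeR adjusted p = 0.44 and 0.409).

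No gene of the 41 was called in fAb against oAb, where 0 of the 10878 genes tested passed in edgeR (0%), 1391 (12.8%) had an unadjusted p under 0.05, and DESeq2 called 18, none of them a member. Among the members 1 had an unadjusted p under 0.05 in edgeR, Pole, at a log2 difference of 0.14 (adjusted p = 0.383). The 95% interval of the difference lay within 0.5 of 0 on the log2 scale for 39 of the 41. The 2 exceptions were Cdt1, at -0.45 with an interval of -0.93 to 0.03, and Pold1, at -0.40 with an interval of -0.87 to 0.07. The genes called in fAb and not in oAb, which are Rrm2, Cdt1, Mcm2 and Mcm6, are therefore not shown to differ between the preparations. For Rrm2 the difference was 0.10, with an interval of -0.06 to 0.26. Rrm1 was the member whose groups did not overlap, higher in every fAb library, where 3.05% of genes tested had no overlap in that direction, and 0 members were lower without overlap (3.25% of genes tested).

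Cdt1 and Pold1 also differed between the library sets within a group. In oAb, Cdt1 was higher in the Timm23 set than in the Gm10273 set by 0.73 on the log2 scale, and in scramble by 0.96. Pold1 was higher by 0.67 in oAb and by 0.78 in scramble. Pcna differed by 0.55 in oAb and 0.14 in scramble, and Mcm2 by 0.43 and 0.19. Over the 41 genes, 8 were higher in the Timm23 set in both groups without overlap, 2 (Cdc6 and Rfc1) were lower in both, and 6 went in opposite directions. The share over all genes was not computed and each set holds few libraries per group. These counts therefore cannot be read as particular to the 41 genes. In oAb the sets are libraries 1 and 2 against libraries 3 and 4, so set and library order cannot be told apart there. In fAb, where all libraries share 1 set, Dnmt1 was also higher in libraries 1 and 2 (212 and 206 against 179 and 188). Cdt1 did not split that way in fAb (69.6 and 56.0 against 67.5 and 73.0). There is 1 scramble library in the Gm10273 set, so within that set it is assumed to vary like the others. As fAb has no library in the Timm23 set, the fAb value with the set as a term rests on that 1 library too. The median of the 41 genes in fAb was -0.39 with the set as a term, beside -0.009 over all genes tested. Within the Gm10273 set it was -0.38 in fAb, beside -0.006, and -0.46 in oAb, beside -0.02. With the set as a term, 21 of the 41 genes fell and 3 rose in oAb, where 2947 of 11033 genes tested fell and 2787 rose. Within the Timm23 set 14 fell and 3 rose in oAb, beside 1816 and 1976 of 11224 genes, and fAb has no library there. The oAb calls of Mcm5, Gins2, Pola1, Pcna, Rfc1, Rpa2 and Tyms were lost within that set (edgeR adjusted p from 0.0568 to 0.174).

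**Figure D3:**
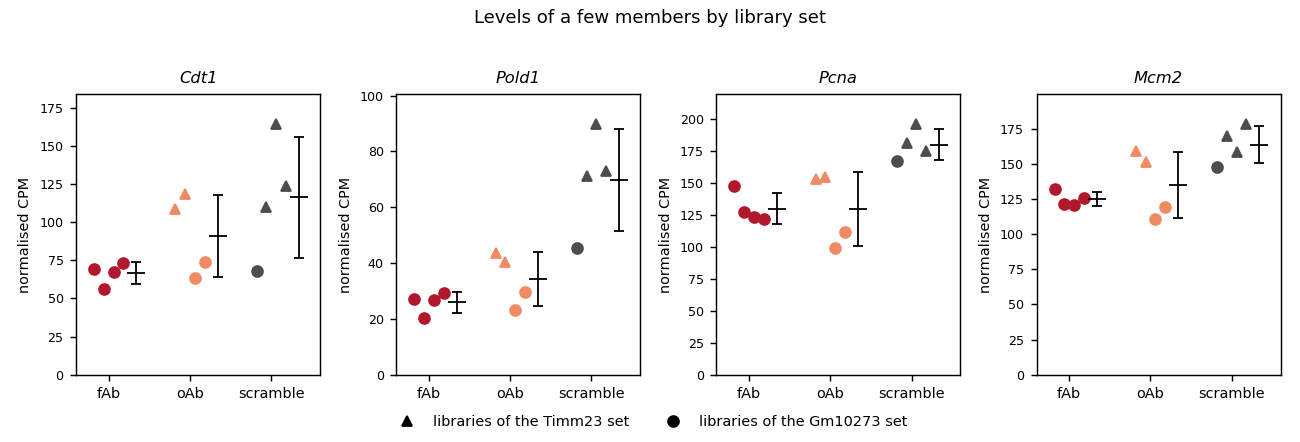
Normalised CPM of each library (y axis, from 0) is plotted for Cdt1, Pold1, Pcna and Mcm2 in fAb, oAb and scramble, with triangles for the Timm23 set, circles for the Gm10273 set and the mean with its SD in black (n = 4 libraries each). For Cdt1 the circle of scramble lies at 68.0, among the fAb libraries, while its triangles lie higher.

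In scramble, levels between genes were compared in the TPM that the authors deposited, which are per length. The highest was Mcm6 at 237 ± 18.5 TPM (SD, n = 4), followed by Pcna at 225 ± 19.7, Mcm3 at 168 ± 16.0 and Mcm5 at 165 ± 16.6. Mcm6 and Pcna did not differ beyond their spread, nor did Mcm3 and Mcm5. The pseudogene Pcna-ps2, which is not a member, was at 335 ± 47.4 TPM in scramble. How reads were divided between it and Pcna was not tested, so the rank of Pcna is uncertain. The lowest was Orc1 at 12.2 ± 3.35 TPM, with Prim2 at 18.6 ± 2.34 and Gins2 at 19.0 ± 1.76 above it. Among the genes that rose, Cdc6 was at 22.6 ± 4.48 TPM and Mcm10 at 21.6 ± 3.95 TPM in scramble.

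Related genes that are not among the 41 were read from lists. Their counts stand beside all genes tested, of which 28.8% fell and 27.6% rose in fAb, and 27% fell and 25.2% rose in oAb. Of 35 other replication factors, 17 fell and 5 rose in fAb (median -0.33), and 16 fell and 4 rose in oAb (median -0.37). Among them Chtf18, of an alternative clamp loader, fell, with a log2 fold change of -1.65 ± 0.16 in fAb (edgeR adjusted p = 2.66e-05) and -1.40 ± 0.20 in oAb (adjusted p = 0.00028). Orc2, an ORC subunit, rose in fAb by 0.77 ± 0.09 on the log2 scale (edgeR adjusted p = 0.000111), and Mcm8, a helicase relative, fell in oAb, with a log2 fold change of -1.17 ± 0.13 (adjusted p = 6.16e-05). Of 13 other nucleotide supply genes, 6 fell and 4 rose in fAb, and 6 fell and 3 rose in oAb. Those with the smallest adjusted p rose: Samhd1, which breaks down deoxyribonucleotides, by a log2 fold change of 1.87 ± 0.09 in fAb and 1.90 ± 0.11 in oAb, and Dck, a kinase of deoxynucleosides, by 1.72 ± 0.14 and 1.62 ± 0.14 (edgeR adjusted p from 1.82e-07 to 1.26e-05). Of 16 genes of the E2F and RB families and partners, 6 fell and 2 rose in fAb, and 5 fell and 1 rose in oAb. Tfdp2, a dimer partner of E2F, fell, with a log2 fold change of -2.60 ± 0.20 and -2.56 ± 0.19, and Rbl2, a relative of RB that represses E2F targets in resting cells, fell, with a log2 fold change of -2.09 ± 0.24 and -2.21 ± 0.19 (edgeR adjusted p from 3.92e-06 to 7.29e-05).

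Cyclins, kinases and inhibitors of the G1 to S step went in both directions. Of 14 tested, 7 rose and 3 fell in fAb (median 0.24), where 27.6% of all genes rose and 28.8% fell, and 6 rose and 4 fell in oAb (median 0.42), where 25.2% rose and 27% fell. Ccnd1, a D cyclin of G1, rose on the log2 scale by 1.01 ± 0.10 in fAb and 1.06 ± 0.09 in oAb. Ccne1, the cyclin of S phase entry, rose by a log2 fold change of 0.59 ± 0.09 and 0.54 ± 0.10, and Cdkn1a, the p21 inhibitor, by 0.32 ± 0.10 and 0.46 ± 0.10 (edgeR adjusted p = 0.0205 and 0.00379). Ccna2, the cyclin of S phase and G2, fell, with a log2 fold change of -1.19 ± 0.08 and -1.20 ± 0.09 (edgeR adjusted p = 2.25e-06 and 3.08e-06), and Cdkn2c, an inhibitor of CDK4 and CDK6, fell in fAb, with a log2 fold change of -2.03 ± 0.17 (adjusted p = 9.36e-06). Cdkn2c was low after both preparations, at a mean of 3.91 normalised CPM in fAb, 5.00 in oAb and 16.5 in scramble. Of 16 genes of the replication checkpoint and fork repair, 8 fell and 3 rose in fAb, and 9 fell and 2 rose in oAb, with Fanci, of the Fanconi pathway, with a log2 fold change of -1.41 ± 0.13 and -1.42 ± 0.14. Of 11 histone chaperones and supply genes 3 fell in fAb and 4 in oAb, with none rising, and Asf1b, which hands histones to CAF-1, had a log2 fold change of -0.82 ± 0.09 and -0.89 ± 0.09.

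Nearly all genes of G2 and mitosis fell. Of 40 tested, 38 fell and 0 rose in each comparison, with a median of -1.16 in fAb and -1.20 in oAb. Of all genes tested, 28.8% fell and 27.6% rose in fAb, and 27% fell and 25.2% rose in oAb. Nusap1, of the spindle, fell, with a log2 fold change of -2.21 ± 0.11 in fAb (edgeR adjusted p = 2.43e-07) and -2.17 ± 0.12 in oAb (adjusted p = 3.69e-07). Mki67, the marker of cycling cells, fell, with a log2 fold change of -1.27 ± 0.19 and -1.35 ± 0.20, and Top2a, the topoisomerase of chromosome separation, with -0.99 ± 0.16 and -1.19 ± 0.15. For Mki67 scramble library 3 was at 460 normalised CPM, beside 878, 784 and 889 in scramble libraries 1, 2 and 4. The scramble libraries of Top2a spread from 296 to 511. For both genes every treated library was lower, at most 319 for Mki67 and 223 for Top2a. Summed, the G2 and mitosis genes were at 1999 to 2080.1 normalised CPM in fAb, 1984 to 2043 in oAb and 3862 to 4929 in scramble, and the 41 genes at 3233 to 3379, 3166 to 3451 and 4373 to 4674. Of 20 replication-dependent histone genes, whose mRNA has no poly(A) tail and is poorly sampled by a poly(A) library, 5 were tested in fAb and 4 fell, and 6 in oAb, of which 2 fell. The difference between the lists and the 41 genes was not tested.

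**Figure D4:**
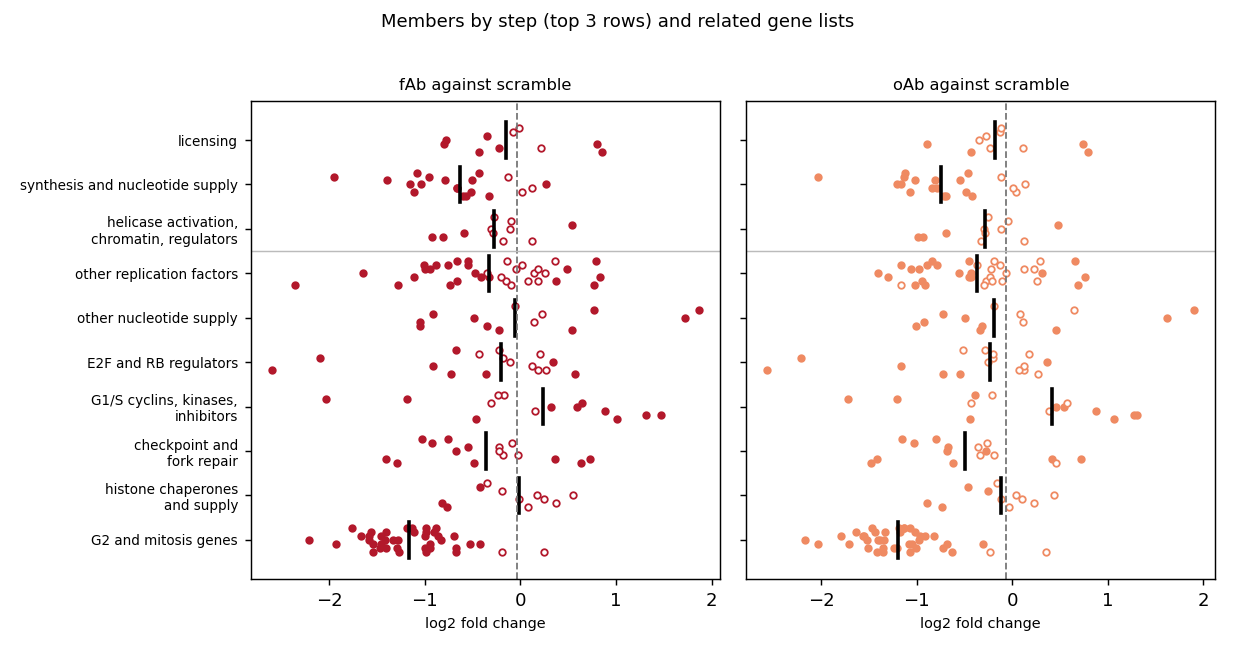
Each point is a gene, with its log2 fold change against scramble on the x axis, for fAb on the left and oAb on the right. Rows are the 41 genes by step (top 3) and related lists, filled points have an adjusted p under 0.05, black bars are row medians and the dashed line is the median of all genes tested. The G2 and mitosis row has a median of -1.16 in fAb and -1.20 in oAb.

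The label of the cells was set against markers. Of 12 microglia and macrophage markers, 10 were tested, and 3 rose and 4 fell in fAb, and 3 rose and 3 fell in oAb. Over all genes tested, 27.6% rose and 28.8% fell in fAb, and 25.2% rose and 27% fell in oAb. Adgre1, which encodes the macrophage antigen F4/80, averaged 400.0 normalised CPM in fAb, 379.4 in oAb and 199 in scramble, Ptprc (CD45) 437, 415 and 257, and Cx3cr1, the fractalkine receptor, 88.9, 92.7 and 60.4, and these are the 3 that rose in each. Among those that fell was Csf1r, the receptor these cells depend on, at 1079 normalised CPM in fAb, 1149 in oAb and 1425 in scramble. Sall1 was at 0 in every library and Tmem119 reached at most 0.301, so these markers of resident microglia were absent or nearly so. P2ry12, another such marker, was tested and fell, with a log2 fold change of -2.92 ± 0.29 in fAb and -2.63 ± 0.33 in oAb (edgeR adjusted p = 3.27e-05 and 0.00012). The summed markers were at 3071 to 3431 in fAb, 3189 to 3562 in oAb and 3139 to 3613 in scramble. Neuron markers were at most 0.304 normalised CPM in sum and astrocyte markers at most 0.655, and none was tested. Of 5 oligodendrocyte markers Mbp was the one tested (48.2, 45.1 and 112 in fAb, oAb and scramble), with Mog and Olig2 at 0. Of 7 fibroblast and endothelial markers Dcn was the one tested (2.47, 2.83 and 0.0131). The part of these markers in the falls of the 41 genes was not tested.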

How the data were processed

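RNA was measured in 12 libraries made from 2 ug of total RNA with a stranded mRNA kit, per the labels' protocols. The authors deposited whole-number counts per gene and TPM, scaled by gene length and depth, per the file headers. The submitters' processing notes name mm10 as the build. Aligner, counter and use of strand: not given in the sources used here. Another 32 columns of per-sample values were not used. Control counts were identical in both tables.

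Members and lists were chosen with earlier results of these data known, as were the library sets. Groups came from titles. The 8 libraries of each comparison were tested in edgeR 4.0.16 (R 4.3.3): filterByExpr with a minimum count of 10, TMM, robust quasi-likelihood F test, two-sided, Benjamini-Hochberg over all genes tested, threshold 0.05. The SE is the log2 fold change over the square root of F, and intervals use edgeR's degrees of freedom. The fit was tested on simulated data. Overlaps and shared 50-base words used GENCODE M21. Within groups no library duplicated another, with a chi-square of 2.97 to 143 for each degree of freedom.

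Values in every library are given for the 2 members per role with the smallest adjusted p in each comparison with scramble, every member that rose, and Cdc6, Cdt1, Mcm2, Pcna, Rrm2, E2f1 and Slbp. Other lists give their 2 genes with the smallest adjusted p in each, with Cdkn1a, Ccne1, Ccnd1, Mki67 and Top2a. Marker genes, and the choice of promoters, are outside that rule. Alternatives were DESeq2 1.42.0, limma 3.58.1 voom, other scalings, filters and thresholds, all 12 libraries, a replicate block, the library sets, each library left out, and, chosen after seeing the data, Pcna and Pcna-ps2 summed.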

Additional observations from a re-analysis of the deposited data

Results flagged for a closer look

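In 10 of 123 combinations of gene and group, 1 library lay apart from the other 3, with a gap to the nearest too large for the group's range under Dixon's test at 95%. Chance flags about 1 in 20 groups. Scramble library 3 was the highest in 6 of them. Its normalised CPM was 406 for Mcm6 (349 to 357 in the others), 188 for Lig1 (149 to 155), 233 for Rpa1 (198 to 199.9), 82.6 for Rpa2 (57.3 to 58.4), 64 for Tyms (45.5 to 48.4) and 48 for E2f1 (33.9 to 35.9). Scramble library 3 was also the lowest of its group, without a flag, for genes such as Pola1 (49.3), Rfc1 (131), Pole (61.4) and Dnmt1 (276). Scramble library 4 was lowest for Pola2, at 41 (45.2 to 45.5 in the others). In fAb, library 1 was lowest for Mcm6 at 297 (308 to 309) and highest for Gins1 at 11.5 (8.53 to 9), and library 2 was highest for Rrm1 at 215 (206 to 207). Without scramble library 3, 24 of the 41 genes fell and 5 rose in fAb, where 3779 of all 11169 genes tested fell and 3819 rose. In oAb 25 fell and 3 rose, where 3671 of 11148 fell and 3503 rose. With all libraries, 3184 genes fell and 3051 rose in fAb, and 2984 fell and 2777 rose in oAb.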

How the results depend on the processing

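Of the 28 members called in fAb, 18 were called under every alternative (15 lower, 3 higher), and of the 24 called in oAb, 17 were (14 lower, 3 higher). Cdt1 in fAb was 0.022 with the library set as a term and 0.030 within the Gm10273 set, against -0.77 as reported and -0.98 to -0.56 when 1 library was left out, and the cause was not tested. In both of these fits by set, fAb is compared with scramble library 1 alone. Over all genes, 3844 were called in fAb with the set as a term and 3792 in oAb within the Timm23 set, where fewer samples were used, and DESeq2 called 18 in fAb against oAb. Leaving out each library in turn gave 21 to 24 members lower and 3 to 5 higher in fAb, 20 to 25 lower and 3 higher in oAb, and 5517 to 7598, 4962 to 7174 and 0 genes called in fAb, in oAb and in fAb against oAb. No pairing by replicate number was seen. The correlations of same-numbered libraries ran from -0.25 to 0.242, and a library correlated best with its own number in 1 of 4, 0 of 4 and 2 of 4 cases. With 4 libraries per group these values cannot exclude a pairing. With the replicate block, 23 members fell and 4 rose in fAb, 19 fell and 3 rose in oAb, and 0 changed in fAb against oAb, of 6292, 5081 and 0 genes called. Depth was not varied.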
